A study of Mus musculus with 3 samples.

Results

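Classical monocytes were described in a single-cell library of lung from wild type C57Bl/6J mice, made by droplet RNA sequencing of fresh, enzyme-digested tissue. The members were chosen by the readout itself: a barcode was counted as a classical monocyte when it held at least 1 UMI (a counted transcript molecule) in at least 5 of the 9 genes F13a1, Ccr2, Ly6c2, Ifitm6, Plac8, Ms4a4c, Cd177, Thbs1 and Wfdc17, and in at most 1 of the 4 genes Adgre4, Treml4, Cd300e and Eno3. The rule found 830 of 11934 barcodes, or 6.95% of the library. The study also holds 2 libraries of nuclei from snap-frozen lung of adult mice of the same strain, and it compared the ways of preparing the tissue. The labels name no separate animals, and the cells came as 1 library, so no test between cell types was possible.

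Classical monocytes are short-lived phagocytes made in the bone marrow, which they leave through the chemokine receptor CCR2. In mice they carry high Ly6C on the surface, enter inflamed tissue and can become macrophages or dendritic-like cells. Non-classical monocytes, which carry little Ly6C, patrol the inside of vessels and depend on the nuclear receptor Nr4a1. In lung both kinds lie mostly in the capillaries, beside interstitial macrophages and dendritic cells of the tissue.

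The genes that mark these cells code for the A subunit of coagulation factor XIII (F13a1), a surface antigen of the Ly6 family (Ly6c2), a GPI-anchored surface protein also known from neutrophils (Cd177), the chemokine receptor Ccr2 and an interferon-induced transmembrane protein (Ifitm6). Their promoters are shown because the members were selected on these genes together. Each line gives 250 bases upstream of the start, from the RefSeq table of build GRCm38.p6, read 5′ to 3′ on the strand of the gene. Capitals mark GAGGAA, a core motif of the myeloid factor PU.1, or its reverse complement.
F13a1, chr13:37050245-37050494, minus strand: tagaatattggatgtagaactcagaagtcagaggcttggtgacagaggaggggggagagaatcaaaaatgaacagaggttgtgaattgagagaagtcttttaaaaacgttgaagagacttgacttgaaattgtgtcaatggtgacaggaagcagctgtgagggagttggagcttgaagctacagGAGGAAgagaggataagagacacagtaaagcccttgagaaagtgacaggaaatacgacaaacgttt
Ly6c2, chr15:75111972-75112221, minus strand: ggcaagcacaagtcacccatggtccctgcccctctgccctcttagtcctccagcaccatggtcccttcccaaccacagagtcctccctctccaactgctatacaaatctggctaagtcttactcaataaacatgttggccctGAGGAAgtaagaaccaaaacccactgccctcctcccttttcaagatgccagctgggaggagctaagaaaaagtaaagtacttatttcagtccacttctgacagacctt
Cd177, chr7:24760312-24760561, minus strand: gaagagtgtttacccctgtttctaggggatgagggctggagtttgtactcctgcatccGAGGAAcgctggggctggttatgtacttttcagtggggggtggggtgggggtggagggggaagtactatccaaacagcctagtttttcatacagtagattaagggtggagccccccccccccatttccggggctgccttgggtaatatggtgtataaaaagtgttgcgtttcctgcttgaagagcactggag
Ccr2, chr9:124101933-124102182, plus strand: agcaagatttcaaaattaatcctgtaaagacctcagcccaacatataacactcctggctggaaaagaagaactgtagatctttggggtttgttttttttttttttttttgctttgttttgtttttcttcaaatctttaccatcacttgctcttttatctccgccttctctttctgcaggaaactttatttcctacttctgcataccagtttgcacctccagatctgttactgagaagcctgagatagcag
Ifitm6, chr7:141016893-141017142, minus strand: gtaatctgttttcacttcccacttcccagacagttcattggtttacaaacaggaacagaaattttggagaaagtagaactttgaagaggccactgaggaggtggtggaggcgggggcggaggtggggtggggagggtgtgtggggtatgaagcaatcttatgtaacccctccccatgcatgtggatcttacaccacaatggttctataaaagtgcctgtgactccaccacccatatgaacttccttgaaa
The table held 12 of the 13 genes of the rule. GAGGAA, searched on both strands, was found upstream of 6 of 8 of the genes required and of 1 of 4 of the genes limited, against 23.3% of all 32851 promoters in the table over the same 250 bases. The match lay 66 bases upstream of the start of F13a1, 108 bases upstream of Ly6c2 and 192 bases upstream of Cd177. TTGCNNAA, a motif of the C/EBP factors searched on both strands, was found in 0 of 8 of the genes required, upstream of Adgre4 alone among the genes limited, and in 9.56% of all promoters. No promoter among the 12 held both motifs, so none overlapped there.

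Levels are given as CPM, the UMIs of a gene per 1000000 UMIs of a group of barcodes, with exact Poisson 95% intervals that cover counting error only. The classical monocytes held 2380061 UMIs, with a median of 2638 UMIs per barcode (quartiles 2264 and 3326, range 1908 to 6919) and a median of 1575 detected genes. Comparison groups of the same library were chosen by fixed markers and are called by the names of those markers: 132 non-classical monocyte-like barcodes with at least 3 of Adgre4, Treml4, Cd300e and Eno3, 66 interstitial macrophage-like barcodes, 78 Cd209a dendritic cell-like barcodes, and 515 B cell-like barcodes. The median depths of these groups, in the order named, were 3064, 2681, 3260 and 2653 UMIs. B cells serve as a measure of free RNA only for genes that they do not express. Which of the genes compared they express was not tested. The comparison groups hold barcodes that were not counted as classical monocytes and that passed 1 of the other rules alone. By contrast, 311 of the 830 classical monocytes (37.5%) also passed the rule of another class. Of these, 151 passed that of endothelial cells, 61 that of B cells, 56 that of neutrophils, 53 that of T and NK cells, 38 that of mesenchymal cells, 7 each those of interstitial macrophages and of Cd209a dendritic cells, 4 that of epithelial cells and 2 that of alveolar macrophages. The doublet caller marked 7 of 11934 barcodes (0.0587%) and 0 classical monocytes, too few to be relied on. Whether the 311 barcodes hold more than 1 cell or free RNA was not tested, and a number of values are given with and without them.

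The genes of the rule were high where the rule required them, which is a description and no finding. F13a1 stood at 944 CPM (905 to 984) in classical monocytes, against 19.6 CPM (8.48 to 38.7) in non-classical and 17.8 CPM (11.6 to 26.1) in B cells. Ly6c2 had 762 CPM (727 to 798), against 46.6 and 68.4 CPM in the same groups. Reads of Ly6c2 and its near copy Ly6c1 could be shared in counting, and Ly6c1, an endothelial gene, had 51.7 CPM in classical monocytes and 47.9 CPM in B cells. Cd177 was detected in 29.2% of classical monocytes, at 132 CPM (118 to 147), and stood at 7.36 CPM in non-classical monocytes. No UMI of Cd177 was counted in interstitial macrophages or Cd209a dendritic cells, where the exact intervals reach 19.9 and 14.4 CPM. Plac8 and Ifitm6 did not separate the monocytes as far: Plac8 had 1215 CPM in classical and 999 CPM in non-classical monocytes, and Ifitm6 had 418 and 270 CPM. Plac8 also had 427 CPM in B cells, a type that expresses it. Ccr2 had 713 CPM in classical monocytes, against 231 CPM in interstitial macrophages and 323 CPM in Cd209a dendritic cells.

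**Figure D1:**
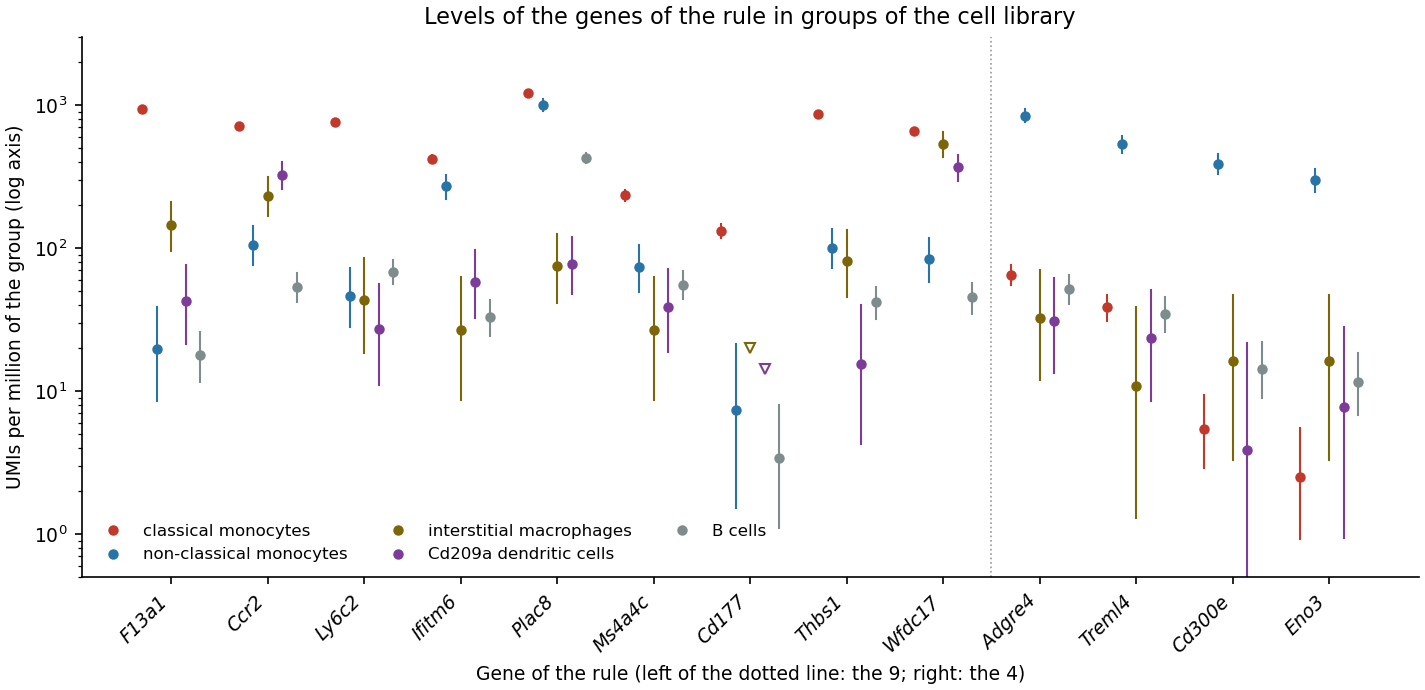
CPM (log axis) of the 13 genes of the rule, with exact Poisson 95% intervals, in classical monocytes, the 3 myeloid comparison groups and B cells. Open triangles stand at the upper limit of a count of 0. Classical monocytes are highest for all 9 genes on the left, with Plac8 at 1215 against 999 in non-classical monocytes, and close to the B cells or below them for the 4 genes on the right.

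The 4 limited genes were low in classical monocytes, which the limit itself fixes. Adgre4 had 65.1 CPM (55.3 to 76.2) in classical monocytes, against 844 CPM in non-classical monocytes and 52.0 CPM (41.0 to 65.1) in B cells. Treml4 had 38.7 CPM, against 530 and 34.9 CPM. Cd300e had 5.46 CPM, against 390 CPM in non-classical monocytes and 14.4 CPM in B cells, and Eno3, an enolase, had 2.52, 297 and 11.6 CPM. Among the 830 barcodes, 627 held none of the 4 genes and 203 held exactly 1.

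Of the barcodes with at most 1 limited gene, 328 held 3 of the 9 genes, 184 held 4, and the number was higher again above the threshold. Exactly 5 of the 9 genes were found in 224 classical monocytes, 6 in 251, 7 in 221, and 8 or 9 in 134. Their summed CPM of the 9 genes was 4337, 5444, 6815 and 7992, which the count of detected genes itself fixes. Just outside, 184 barcodes had exactly 4 of the 9 genes, with a sum of 2806 CPM. Fn1 (fibronectin), which the rule did not read, had 844 CPM (773 to 919) in the classical monocytes with exactly 5 genes and 458 CPM (403 to 518) in the barcodes with exactly 4. The median depth of these groups was 2578 and 2806 UMIs, so the barcodes just outside were not the shallower ones.

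A further 58 barcodes met the requirement of 5 genes but held 2 to 4 of the limited genes, and stayed outside. Over 15 classical monocyte genes that the rule did not read, the summed level was 11445 CPM (11287 to 11603) in classical monocytes with none of the 4 genes and 11063 CPM (10801 to 11329) in those with 1. It was 9543 CPM (9120 to 9982) in the 58 barcodes between, 3806 CPM (3619 to 4001) in non-classical monocytes and 1236 CPM in B cells. Lyz2 alone made up 7901, 7662, 6766, 2724 and 702 CPM of these sums. The same list summed to 18998 CPM in alveolar macrophages and 9246 CPM in epithelial cells, so it is not particular to classical monocytes. Over 13 non-classical genes outside the rule the same groups had 2146, 2665, 4199, 7456 and 1781 CPM. Ace, an angiotensin-converting enzyme, ran through 61.7, 99.5, 190, 444 and 60.9 CPM in the same order, and Fn1 through 1053, 947, 676, 49.1 and 39.7 CPM. The 58 barcodes between were deeper, with a median of 3524 UMIs. Whether they hold 2 cells each was not tested.

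**Figure D2:**
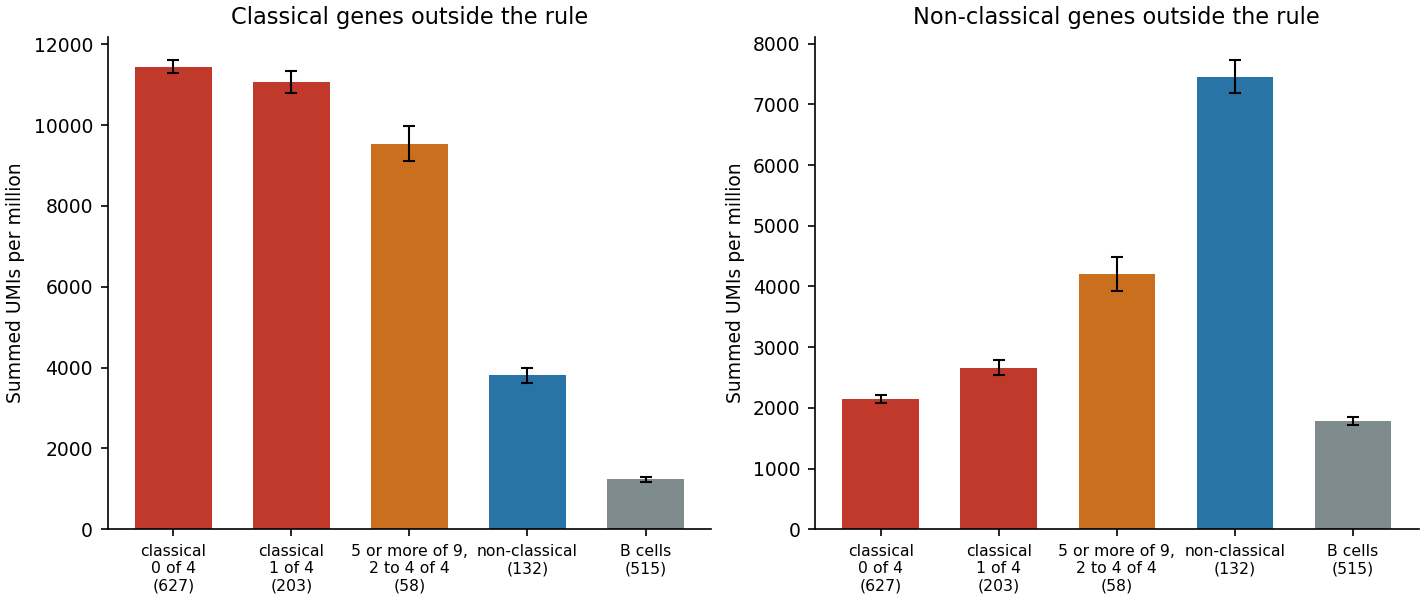
Summed CPM of 15 classical (left) and 13 non-classical genes (right) that the rule did not read, with exact Poisson 95% intervals. Bars are groups of barcodes, with their number in parentheses. The classical sum steps down and the non-classical sum steps up from classical monocytes with none of the 4 limited genes (11445 and 2146) to non-classical monocytes (3806 and 7456).

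Against non-classical monocytes, classical monocytes had more transcripts of matrix genes, of the lipopolysaccharide co-receptor Cd14 and of lysozyme, and fewer of the genes that mark patrolling monocytes. A gene was called when it differed by at least 2-fold and had at least 50 CPM in the higher group. This held for 236 of 4314 genes in the higher direction (5.47%) and for 245 in the lower direction (5.68%), with a median log2 ratio of 0.00 over all 4314. The calls rest on 1 library and on groups chosen by markers of this same contrast, so they are descriptions without a test. Among the 15 classical genes outside the rule 13 passed the minimum level, 9 were called higher and 0 lower, with a median log2 ratio of 1.61. Among the 13 non-classical genes all passed, 0 were called higher and 11 lower, with a median of -2.22.

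Fn1 had 1026 CPM (985 to 1067) in classical monocytes and 49.1 CPM (30.0 to 75.8) in non-classical monocytes, a log2 ratio of 4.39 (exact conditional 95% interval 3.75 to 5.10). It was detected in 83.7% of classical monocytes, 11.4% of non-classical monocytes and 5.63% of B cells. Vcan (versican, a matrix proteoglycan) had 78.1 CPM, against 2.45 CPM from a single UMI, with an interval of 0.0621 to 13.7 CPM for the non-classical monocytes. Cd14 had 230 CPM (211 to 250) and 22.1 CPM (10.1 to 41.9). Lyz2 (lysozyme) was found in 100% of classical monocytes, at 7839 CPM against 2724 CPM. Ccl9, a chemokine, had 353 CPM and 115 CPM, and Hp (haptoglobin, which binds free haemoglobin) had 205 CPM and 63.8 CPM. Mgst1, a microsomal glutathione transferase, had 216 and 106 CPM, a log2 ratio of 1.03 that was 0.95 under median-of-ratios scaling.

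Other genes with large ratios lay outside these lists. Atrnl1, an attractin-like protein, had 766 CPM (732 to 802) in classical monocytes and 76.1 CPM (51.7 to 108) in non-classical monocytes. Plcb1, a phospholipase C that acts downstream of G-protein-coupled receptors, had 1869 and 425 CPM. Gas7 had 471 and 56.4 CPM, Emp1 463 and 73.6 CPM, and Stxbp6 494 and 108 CPM. Ptafr, the receptor for platelet-activating factor, had 125 and 27.0 CPM, the nucleoside kinase Uck2 145 and 22.1 CPM, and the schlafen gene Slfn5 203 and 34.4 CPM. Igha, the heavy chain of immunoglobulin A, also met the rule with 560 and 118 CPM. In the 519 classical monocytes that passed no other class's rule it had 203 CPM, a log2 ratio of 0.79 and no call, and B cells had 7760 CPM.

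Ratios in the lower direction were ranked among genes outside the rule with at least 100 CPM in the higher group, without clone-like, ribosomal and mitochondrial symbols. The lowest of these was that of Ccdc192, with 5.46 CPM in classical monocytes (8.81 CPM without the 311 barcodes) and 140 CPM in non-classical monocytes. Pparg, a lipid-sensing nuclear receptor, followed with 27.3 CPM (21.1 to 34.8) and 429 CPM (368 to 498). Dusp16, a phosphatase of MAP kinases, had 99.2 and 1092 CPM, and Fcgr4, an activating receptor for immunoglobulin G, had 28.2 and 290 CPM. S1pr5, a receptor for sphingosine-1-phosphate, had a log2 ratio of -3.26, with 125 CPM in non-classical monocytes, and Tcf7l2, a Wnt pathway transcription factor, had 106 and 736 CPM. Lair1, an inhibitory receptor for collagen, had 29.4 and 282 CPM, and Pglyrp1, which binds peptidoglycan, had 33.2 and 272 CPM. Smpdl3b, Cd300ld, Zfp119a and Tiam2 had 28.2, 29.4, 40.3 and 43.3 CPM in classical monocytes, against 280, 243, 321 and 299 CPM. B cells had 30.1 CPM of Fcgr4, 47.9 CPM of Pparg and 34.9 CPM of Pglyrp1, at or above the levels in classical monocytes.

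The listed non-classical genes were also lower in classical monocytes. The list was chosen with earlier results of these data known, so it gives no independent support. Spn (CD43) had 53.8 CPM in classical monocytes and 346 CPM in non-classical monocytes, Ace 71.4 and 444 CPM, Itgal (the alpha chain of LFA-1) 375 and 1306 CPM, and the scavenger receptor Cd36 256 and 1065 CPM. Nr4a1, on which the non-classical cells depend, had 262 CPM (242 to 283) and 726 CPM (646 to 814). The fatty acid carrier Fabp4 had 2.94 and 81.0 CPM, with 15.1 CPM in B cells. Cx3cr1, the fractalkine receptor, was not called, at 334 CPM (312 to 359) and 476 CPM (411 to 548). Cebpb, a factor that the survival of non-classical monocytes needs in mice, was not called either, at 410 and 611 CPM.

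**Figure D3:**
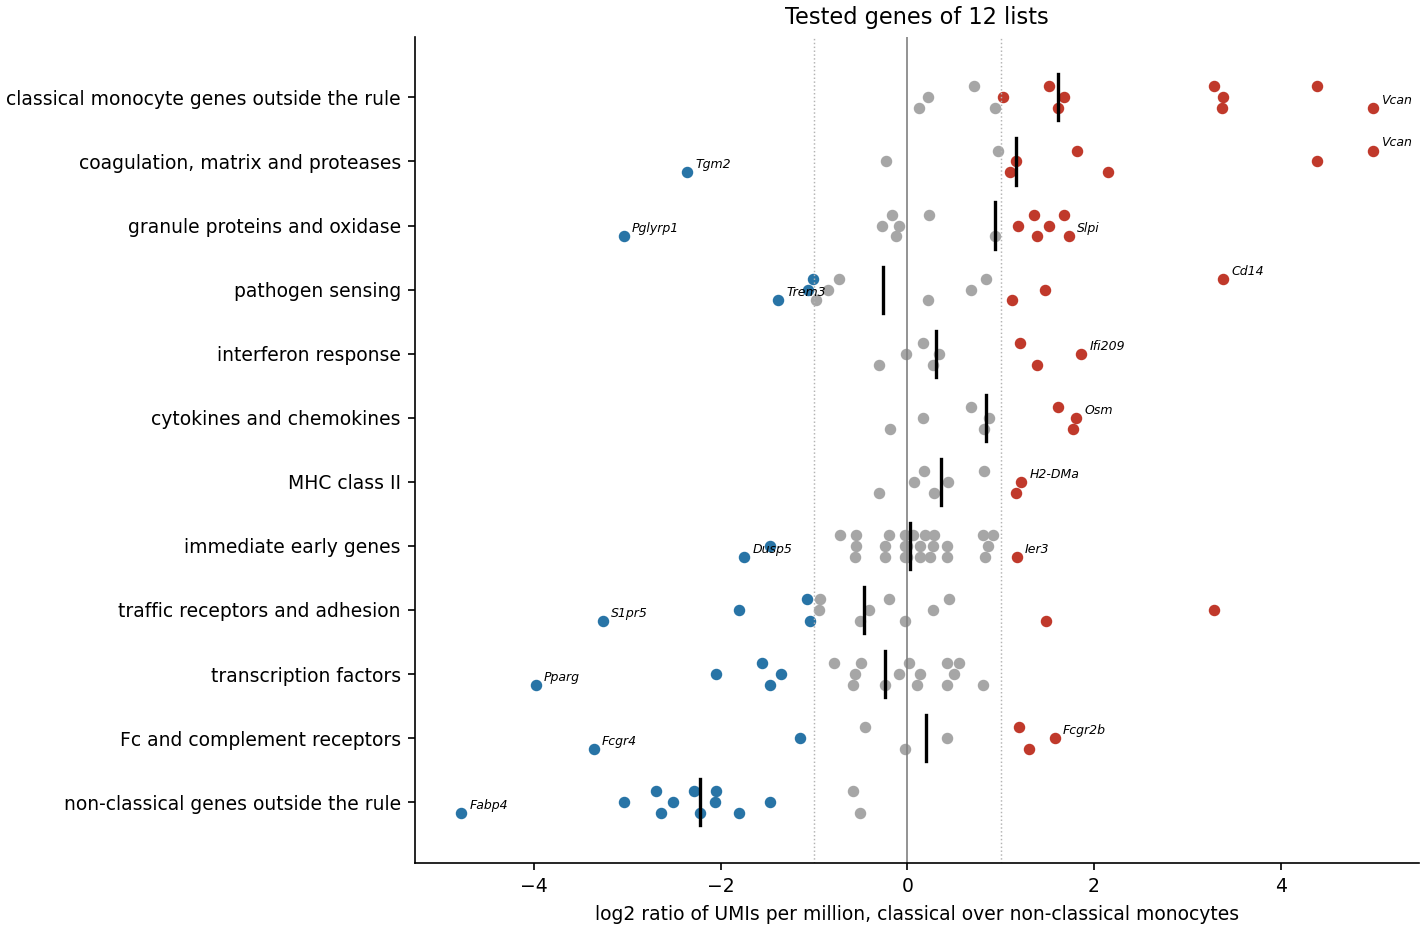
log2 ratio of CPM, classical over non-classical monocytes, for the genes of 12 lists that passed the minimum level. Red points were called higher, blue points lower and grey points neither, dotted lines mark a 2-fold difference, black bars are list medians, and the outermost called gene is named on each side, except for traffic receptors on the higher side. The classical list has its median at 1.61 and the non-classical list at -2.22.

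Receptors for traffic divided between the monocytes. Of 14 tested genes 2 were called higher and 4 lower. Itgal, S1pr5, Itga4 (468 CPM in classical and 982 CPM in non-classical monocytes) and Itgb2 (240 and 493 CPM) were lower. The ratios of Itga4 and Itgb2 stood within 2-fold without the 311 barcodes. Cd44, a receptor for hyaluronan, was detected in 96.9% of classical monocytes with 2171 CPM, against 1782 CPM in non-classical monocytes and 603 CPM in B cells. Itgam, the alpha chain of Mac-1, had 241 and 245 CPM, and Cxcr4 had 245 and 474 CPM.

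Sensors of microbes were called higher for 3 of 12 tested genes and lower for 3. Cd14, Tlr2 (a receptor for bacterial lipoproteins, 109 and 39.3 CPM) and the C-type lectin Clec4d (224 and 103 CPM) were higher. The endosomal receptors for RNA Tlr7 (55.5 and 115 CPM) and Tlr13 (55.9 and 113 CPM) were lower, as was Trem3, an activating receptor. Of these, Clec4d, Tlr7 and Tlr13 stood within 2-fold without the 311 barcodes. Tlr4, the receptor for lipopolysaccharide, had 42.9 CPM (34.9 to 52.0) and 41.7 CPM (24.3 to 66.8), with intervals that overlap.

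Of 13 tested genes for granule proteins and the oxidase, 6 were called higher and 1 lower. Slpi, an inhibitor of serine proteases, had 130 CPM (116 to 145), against 39.3 CPM (22.4 to 63.8). S100a8 and S100a9, which form calprotectin, had 302 and 409 CPM in all classical monocytes, against 115 and 160 CPM in non-classical monocytes. Without the 311 barcodes they had 77.1 and 85.2 CPM, the log2 ratios were -0.58 and -0.91, so both genes were then lower in classical monocytes. The oxidase gene Cybb was not called, with 1125 and 1220 CPM. The granule genes Elane and Camp had no UMI in the classical monocytes, where the exact interval reaches 1.55 CPM, and Mpo had 2.10 CPM and Prtn3 17.2 CPM (12.4 to 23.4).

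Neutrophil markers share S100a8 and S100a9 with that list. Of 7 tested neutrophil markers 5 were called higher in all classical monocytes, against 1 of 6 in the 519 that passed no other class's rule, where the summed level of the 10 markers was 440 CPM in place of 1215 CPM. It was 594 CPM in non-classical monocytes and 149 CPM in B cells. The neutrophil rule itself reads Retnlg, Cxcr2, G0s2, Mmp9, Il1r2 and Hdc among the 10 markers. Their levels in the 519, and with them the summed level and the calls, are therefore limited by that rule. The same holds for the sums in non-classical monocytes and B cells, whose barcodes did not pass the neutrophil rule. The defining marker Ly6g, which the neutrophil rule does not read, had 0.420 CPM in all classical monocytes and no UMI in the 519. Retnlg had 54.2 and 7.34 CPM in these 2 sets, and Cxcr2 10.1 and 0.734 CPM. The part of neutrophil RNA in the remaining S100a8 and S100a9 level was not tested.

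Coagulation, matrix and protease genes were called higher for 6 of 9 tested genes and lower for 1. Gda, a guanine deaminase, had 1072 CPM (1031 to 1115) in classical monocytes and 501 CPM (434 to 574) in non-classical monocytes. Coagulation factor V (F5) had 130 and 36.8 CPM, and factor X (F10) 164 and 73.6 CPM. Tgm2, a transglutaminase, was lower, with 128 and 655 CPM. Tissue factor (F3), which starts coagulation, had 2.94 CPM (1.18 to 6.06) in classical monocytes, 0.734 CPM without the 311 barcodes, and 1.37 CPM in B cells.

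Interferon-response genes were called higher for 3 of 8 tested genes, Ifi204 (135 and 51.5 CPM), Ifi209 (125 and 34.4 CPM) and Bst2 (103 and 44.2 CPM), and 0 were called lower. Ifitm3, which blocks the entry of viruses, was detected in 99.3% of classical monocytes, at 2157 CPM against 1779 CPM in non-classical monocytes and 288 CPM in B cells. Reads of the Ifitm genes could be shared among the family in counting. Cytokine genes were called higher for 3 of 8 tested genes, Ccl9, Osm (oncostatin M, 68.9 and 19.6 CPM) and Ptgs2 (cyclooxygenase 2, 75.2 and 22.1 CPM). Il1b was not called, with 517 CPM (489 to 547) and 589 CPM (517 to 668). Il6 and Tnf had 14.7 and 19.7 CPM in classical monocytes.

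Fc and complement receptors were called higher for Fcgr2b (66.0 and 22.1 CPM), Fcgr3 (118 and 51.5 CPM) and the complement component C3 (247 and 101 CPM), and lower for Fcgr4 and C5ar1 (39.9 and 88.4 CPM), out of 8 tested genes. Transcription factors were called higher for 0 and lower for 5 of 19 tested genes. Besides Pparg and Nr4a1 these were Spi1, which codes for PU.1 (287 CPM and 731 CPM), Pou2f2 (287 and 1193 CPM) and Bhlhe40 (68.5 and 201 CPM). Zeb2, with 1768 and 1649 CPM, and Klf4, with 368 and 434 CPM, were not called. Of 28 tested immediate early genes, which respond fast to stimulation and to tissue digestion, 1 was called higher (Ier3, 226 and 101 CPM) and 2 lower (Nr4a1 and Dusp5). Their summed level was 11363 CPM (11228 to 11499) in classical monocytes, 10941 CPM (10622 to 11267) in non-classical monocytes and 7944 CPM in B cells.

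Against interstitial macrophages, classical monocytes held less of the MHC class II, macrophage and chemokine genes and more of the coagulation and interferon-response genes. By the same limits 404 of 4630 genes were called higher (8.73%) and 495 lower (10.7%). With TMM scaling, which shifts all log2 ratios of this comparison by 0.18, the split was 579 higher and 350 lower. The complement genes C1qb and C1qc, which are part of the rule for the macrophages, had 13.9 and 7.14 CPM in classical monocytes, 5.14 and 3.67 CPM without the 311 barcodes, and 4.79 and 1.37 CPM in B cells. Of 12 tested genes of macrophage differentiation 0 were called higher and 9 lower. Adgre1 (F4/80) had 133 CPM (119 to 149) in classical monocytes and 458 CPM (366 to 566) in interstitial macrophages, and the mannose receptor Mrc1 had 50.8 and 511 CPM. Mertk, which takes up apoptotic cells, had 18.9 CPM (11.7 CPM without the 311 barcodes) and 172 CPM, and 30.8 CPM in B cells.

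Of 16 tested cytokine and chemokine genes 2 were called higher and 9 lower than in these macrophages, with a median log2 ratio of -1.36. Cxcl2, which draws neutrophils, had 192 CPM (175 to 211) and 931 CPM (798 to 1081), and Cxcl16 had 15.1 and 350 CPM. Ccl8 had 0.840 CPM from 2 UMIs, against 420 CPM, a log2 ratio of -8.96 (-12.04 to -7.06). Cxcl13, which draws B cells, had 2.52 and 264 CPM, and Cxcl9 1.68 and 102 CPM. C3ar1 had 5.88 and 253 CPM, the elastase Mmp12 1.68 and 135 CPM, H2-M2 1.26 and 248 CPM, St18 2.52 and 248 CPM, and Rab3il1 2.94 and 135 CPM. Tnf had 19.7 CPM in classical monocytes, against 194 CPM in interstitial macrophages and 156 CPM in Cd209a dendritic cells.

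Genes higher in classical monocytes than in interstitial macrophages held Sgms2, a sphingomyelin synthase, with 467 CPM (440 to 495) and 21.5 CPM (5.87 to 55.1). F5 (130 and 5.38 CPM), F10 (164 and 10.8 CPM), Ifi204 (135 and 5.38 CPM), Arhgef37 (139 and 5.38 CPM) and the glutamate transporter Slc1a2 (152 and 10.8 CPM) rest on 1 or 2 UMIs in the 66 macrophages. The log2 interval of F5 runs from 2.11 to 9.90. S100a8 and S100a9, at 10.8 and 26.9 CPM in the macrophages, had log2 ratios of 4.81 and 3.93, which were 2.84 and 1.66 without the 311 barcodes. Coagulation and matrix genes were called higher for 7 of 9 and interferon-response genes for 5 of 8. Ifitm3 had 2157 and 415 CPM, and Plaur, the urokinase receptor, 369 and 96.9 CPM.

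Against Cd209a dendritic cells, classical monocytes held less of the antigen-presentation genes and more of the listed classical monocyte genes. Here 485 of 4526 genes were called higher (10.7%) and 416 lower (9.19%), with a median log2 ratio of 0.08. Of 13 tested classical genes outside the rule 13 were called higher, with a median of 2.62. Lyz2 had 7839 CPM (7727 to 7953) in classical monocytes and 580 CPM (491 to 681) in dendritic cells. Sgms2 had 467 and 7.79 CPM, Pde7b, a cyclic AMP phosphodiesterase, 289 and 7.79 CPM, and Slc11a1, a metal transporter of the phagosome, 127 and 3.90 CPM. Apoe, a lipid carrier, had 971 and 35.1 CPM, glutathione reductase Gsr 682 and 35.1 CPM, and Cebpb 410 CPM (384 to 436) and 23.4 CPM (8.58 to 50.9). Zfyve9 had 151 and 7.79 CPM and Klra2 302 and 15.6 CPM. Csf1r, the receptor for the growth factor of macrophages, had 317 CPM and 81.8 CPM, and 749 CPM in non-classical monocytes.

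The genes lower than in dendritic cells were led by Dcstamp (0.420 CPM from 1 UMI, against 230 CPM) and by the chemokines Ccl17 (2.10 and 238 CPM) and Ccl22 (5.04 and 152 CPM), ligands of CCR4. Mgl2 (CD301b) had 11.3 and 390 CPM, Timd4, which binds phosphatidylserine, 3.36 and 179 CPM, Adam23 7.56 and 405 CPM, Frmd5 9.24 and 206 CPM, and Bcl2a1a, of the BCL2 family, 8.82 and 156 CPM. Of 30 tested immediate early genes 0 were called higher and 9 lower. Gadd45b had 84.0 CPM (72.8 to 96.5) and 343 CPM (275 to 422), and Nfkbia, an inhibitor of NF-kappa B, had 320 and 908 CPM. Fos and Junb were not called, with 998 and 725 CPM and with 2580 and 2248 CPM.

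MHC class II was lower in classical monocytes than in both tissue cell types and close to its level in non-classical monocytes. The summed level of 12 genes was 3207 CPM (3135 to 3279) in classical monocytes, against 3053 CPM (2886 to 3227) in non-classical monocytes, 20592 CPM (19945 to 21256) in interstitial macrophages and 28727 CPM (28075 to 29390) in Cd209a dendritic cells. B cells had 7602 CPM. Against non-classical monocytes 2 of 8 tested genes were called higher, H2-DMa and H2-DMb1, and 0 lower. Against interstitial macrophages 7 of 9 tested genes were called lower, and against dendritic cells 8 of 9. The rule for the dendritic cells reads Ciita and H2-DMb2, which were left out of the count against them but are part of the sums. H2-Aa, the alpha chain of I-A, had 391 CPM (366 to 417) in classical monocytes, 373 CPM in non-classical monocytes, 3225 CPM in interstitial macrophages and 4511 CPM in dendritic cells. Ciita, the master regulator of these genes, had 41.2 CPM in classical monocytes and 205 CPM in interstitial macrophages.

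MHC class II was also among the most uneven signals within the classical monocytes. Over counts thinned to 1000 UMIs per barcode, the median variance-to-mean ratio of 3905 genes was 1.05, close to the value of random counts, and 99 genes reached 1.5. Cd74, the invariant chain, had a ratio of 3.66 and a UMI in 50.6% of thinned classical monocytes. The ratio was 3.80 in the 519 barcodes that passed no other class's rule. Several of the leading genes are known from other cell types. The haemoglobin genes Hbb-bs and Hba-a1, near copies within their families, had ratios of 55.5 and 34.7, and 8 barcodes held 79.8% and 81.8% of their UMIs. Igha had a ratio of 49.8, which was 1.19 in the 519. The surfactant gene Sftpc had 3.66, which was 1.06 in the 519, and the airway secretory gene Scgb1a1 had 15.1, which was 19.8 in the 519. Hbb-bs and Hba-a1 also had higher ratios in the 519, at 63.0 and 40.6. Scgb1a1 was detected in 88.8% of classical monocytes and in 91.1% of B cells, and Sftpc in 86.4% and 86.0%.

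**Figure D4:**
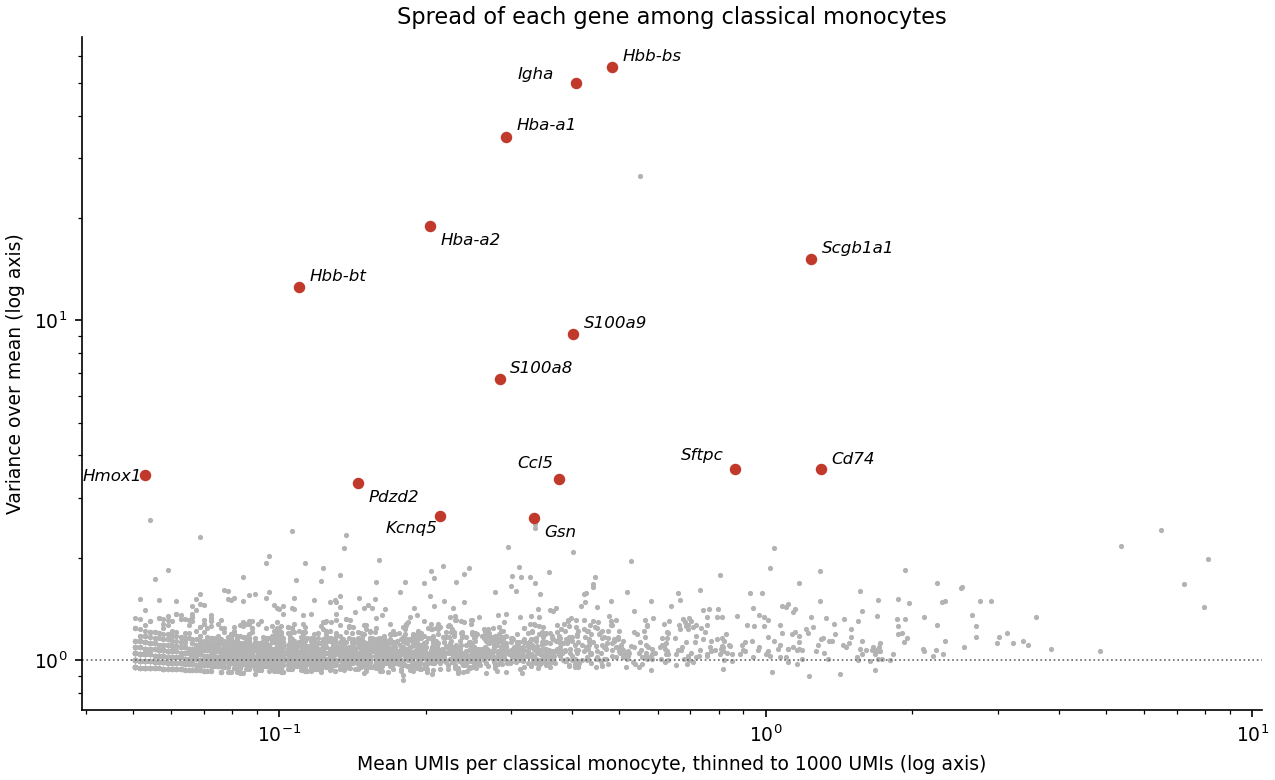
Variance over mean against mean UMIs (both log axes) among 830 classical monocytes, each thinned to 1000 UMIs. Every point is a gene, red points are the 15 leading genes with a symbol that is not clone-like, and the dotted line marks a ratio of 1. Most genes lie near 1.05, and haemoglobin genes and Igha lie highest.

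S100a9 and S100a8 had variance-to-mean ratios of 9.08 and 6.72, with a UMI of each in 8.19% of thinned classical monocytes. In the 519 barcodes the ratios were 8.54 and 4.23. The chemokine Ccl5 had a ratio of 3.42, and 2.29 in the 519, and the haem-degrading enzyme Hmox1 had 3.50 and 4.05, with a UMI in 3.98% of thinned classical monocytes. Pdzd2, Kcnq5 and the actin-severing gene Gsn completed the leading genes with 3.31, 2.65 and 2.62. In the 519 they had 3.36, 1.82 and 1.46.

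The classical monocytes were ordered by their UMIs of MHC class II genes and cut into 4 groups of near equal size. The top group (207 barcodes, 3 to 33 thinned UMIs, mean 8.40) differed from the bottom group (208 barcodes, 0 to 1 thinned UMI, mean 0.115) in genes that did not set the order. Fn1 had 711 CPM (646 to 781) in the top group and 1147 CPM (1062 to 1238) in the bottom group. F13a1 had 761 CPM (694 to 833) and 963 CPM (885 to 1046), though it belongs to the rule. Ccr2 was level, at 701 CPM (637 to 771) and 696 CPM (630 to 767). Apoe was higher, at 1198 CPM (1113 to 1288) and 877 CPM (803 to 956). Vcan had 55.2 CPM (38.2 to 77.1) and 80.4 CPM (59.0 to 107), with intervals that overlap. The median depth before thinning was 2717 and 2660 UMIs.

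The top group also held more barcodes that passed the rule of B cells, Cd209a dendritic cells or interstitial macrophages, 47 against 5. When the 519 barcodes that passed no other rule were ordered alone, Fn1 had 817 CPM (724 to 918) in the top group and 1290 CPM (1173 to 1416) in the bottom group. F13a1 had 750 CPM (661 to 847) and 1136 CPM (1026 to 1254), and Apoe 1224 CPM (1110 to 1347) and 927 CPM (828 to 1034). The dendritic cell marker Cd209a had 11.6 CPM (3.17 to 29.8) and 2.91 CPM (0.0736 to 16.2), against 382 CPM in the Cd209a dendritic cells. Flt3, the growth factor receptor of dendritic cells, had 37.8 CPM (20.1 to 64.6) and 5.81 CPM (0.704 to 21.0). The rule for dendritic cells reads Cd209a and Flt3, and that for interstitial macrophages reads Apoe, which limits these genes in the 519.

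**Figure D5:**
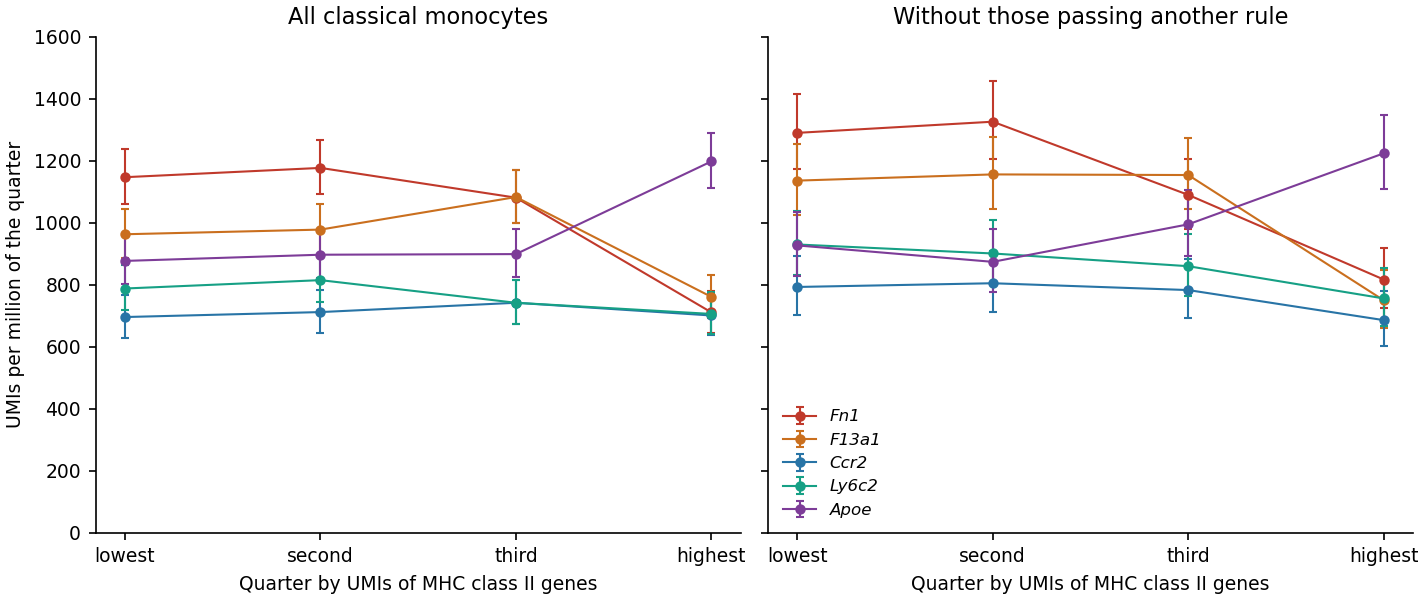
CPM of 5 genes in 4 groups of near equal size of the classical monocytes, ordered by their UMIs of MHC class II genes, with exact Poisson 95% intervals, for all 830 barcodes (left) and for the 519 that passed no other class's rule (right). Fn1 and F13a1 are lowest and Apoe is highest in the top group, and Ccr2 on the left is level at 701 against 696.

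The classical monocytes were ordered in the same way by their immediate early UMIs in the thinned counts. The top group (14 to 29 thinned UMIs) and the bottom group (1 to 8) differed in Il1b, with 891 CPM (816 to 971) and 350 CPM (305 to 400). Cxcl2 had 322 CPM (278 to 372) and 104 CPM (79.6 to 132). In the 519 barcodes ordered alone Il1b had 589 CPM (509 to 678) and 357 CPM (297 to 426), and Cxcl2 261 CPM (209 to 323) and 90.1 CPM (61.2 to 128). Neutrophil markers moved with this order, at 2311 and 667 CPM over all classical monocytes and 652 and 256 CPM in the 519. The neutrophil rule limits a number of these markers in the 519. Of the 56 barcodes that passed the neutrophil rule, 32 lay in the top group and 7 in the bottom group. The part of neutrophil RNA in these differences was not tested.

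The same rule applied to nuclei found 0 of 6849 barcodes in replicate 1 and 0 of 9806 in replicate 2. With 3 counts in place of 0, the share of nuclei that pass the rule is limited to 0.0438% and 0.0306%. These limits hold for the rule and not for the share of monocytes among the nuclei. The largest number of the 9 genes seen in any nucleus was 4, and 1 and 4 nuclei with at most 1 of the limited genes reached it. The median depth of the nuclei was 4152 and 2521 UMIs. Classical monocytes could therefore not be compared between cells and nuclei by this rule. Over whole libraries F13a1 had 78.4 CPM in cells, against 53.7 and 38.5 CPM in the nuclei. Ccr2 had 95.5 CPM in cells, against 13.6 and 20.1 CPM. Ifitm6 had 52.0 CPM in cells, against 0.249 and 0.921 CPM. These levels mix the share of monocytes with the RNA per barcode, which cannot be told apart. Cells and nuclei shared 21 and 24 barcode sequences, of which 1 each was a classical monocyte.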

How the data were processed

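RNA was counted in 3 droplet libraries of mouse lung, 1 of cells and 2 of nuclei, made with the 10x Chromium assay. The results rest mainly on the cell table. The submitters' processing notes name STAR 2.5.3a and the build mm10. The deposited values are UMI counts per gene and barcode. How intronic reads were treated is not stated in the labels or headers. The deposited cell barcodes held 773 to 2499 genes each and the nuclei 202 to 2499 and 615 to 2999, so barcodes with more genes were not analysed here. No further filter on barcodes was set.

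The members and lists were chosen with earlier results of these data known. UMI counts were summed over the barcodes of a group and divided by the group's total, so a CPM here is not thinned and not scaled further. A gene counted as called at 2-fold or more with at least 50 CPM in the higher group. Where a group had 0 UMIs, 3 counts stood in its place and the ratio is a bound. Genes of the compared rules were left out of list counts.

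Named genes were the 12 (non-classical monocytes) or 8 (other groups) largest ratios in each direction with at least 100 CPM, without clone-like, ribosomal and mitochondrial symbols, plus listed genes. For variation the 15 largest variance-to-mean ratios were named. Tools were Python 3.11.15, numpy 2.4.6, scipy 1.17.1 and scanpy 1.11.5 (Scrublet), and TMM factors came from edgeR 4.0.16 in R 4.3.3. Sums and ratios were tested on simulated data. Irf8, Myd88, Clec7a, Csrnp1, Ifitm2, Ifi211 and Ifi47 were not analysed here, and some genes that the naming rule or the lists cover are not reported here. Without separate cultures or animals in the labels and with 1 cell library, intervals cover counting error only.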

Additional observations from a re-analysis of the deposited data

How the results depend on the processing

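The number of classical monocytes was 519 without those passing another class's rule. With at least 200 CPM in place of 50, the calls against non-classical monocytes were 56 higher and 114 lower, against interstitial macrophages 139 and 123, and against Cd209a dendritic cells 132 and 132. With no minimum they were 1411 and 5644, 1171 and 8197, and 1646 and 7345, where 3 counts in place of 0 weigh more in the smaller group. Thinned to 1000 UMIs they were 417 and 404, 625 and 847, and 754 and 721, with fewer counts behind each gene. With non-classical monocytes taken at 2 or more of their 4 genes, 134 genes were called higher and 166 lower. Among the listed genes, F10, Bst2, Fcgr2b, C5ar1, Ier3, H2-DMb1, Itga4, Tlr7, Tlr13, Ctsb, G0s2 and Hdc were then within 2-fold. That setting also moved 14 of 24 named ratios against them beyond their own intervals. Of 304 ratios recomputed for 56 named genes, 29 left their interval and 0 changed sign. Among the listed genes, the ratios of S100a8, S100a9 and Retnlg against non-classical monocytes changed sign without the barcodes passing another rule. Their log2 ratios were then -0.58, -0.91 and -0.74, all within 2-fold. The neutrophil rule reads Retnlg, which limits its level in that setting. At a thinned depth of 2000 UMIs, 331 genes reached a variance-to-mean ratio of 1.5. No paired analysis was possible because the cells came as 1 library, and the planned comparison of cells with nuclei (edgeR, DESeq2, with and without a filter, without each nucleus replicate) was not run, since 0 nuclei passed the rule. The 66 to 132 barcodes of a comparison group limit genes under about 50 CPM.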

Other observations

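Mki67, a proliferation gene, had 68.9 CPM (exact Poisson 95% interval 58.8 to 80.3) in classical monocytes, against 194 CPM (153 to 242) in non-classical monocytes, 81.8 CPM in Cd209a dendritic cells and 40.4 CPM in B cells. It was detected in 17.5% of classical and 43.2% of non-classical monocytes. Top2a, another proliferation gene, had 15.5 CPM and 24.5 CPM in the same groups, with intervals of 10.9 to 21.4 and 11.8 to 45.1. Of 14 cell cycle genes 4 had no UMI in non-classical monocytes, namely Ccnb1, Ccna2, Birc5 and Rrm2. In classical monocytes they had 0.840, 0.840, 4.62 and 3.78 CPM, too low for a count of 0 in the smaller group to show a difference. The summed level of the 14 genes, Mki67 included, was 269 CPM (248 to 291) in classical and 388 CPM (330 to 453) in non-classical monocytes. Mki67 alone, at 68.9 and 194 CPM, differed by about as much as the sums. The sums therefore do not show a higher level of the other cell cycle genes in non-classical monocytes.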
